A study of Mus musculus with 11 samples.

Results

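Cytosolic ribosomal protein genes encode the protein subunits of the ribosomes that translate nuclear mRNAs. They were followed here in mouse CD8 T cells sorted from mammary tumors some days after adoptive transfer. Members were taken by symbol: Rpl or Rps followed by a number, plus Rplp0, Rplp1, Rplp2 and Rpsa, and without the S6 kinase genes (Rps6k). Only array features (rows) that name 1 gene were used, and a gene with several rows was represented by the row of highest mean. Symbols of pseudogenes, which carry -ps, were kept apart. The rule matched 66 genes, of which 65 had a mean log2 signal at or above the filter of 4.33, the 25th percentile of all named genes. These 65 members, 41 with Rpl and 24 with Rps symbols, stand among 15194 genes tested. The member just inside the filter was Rpl39l, with a mean log2 signal of 4.51, and the gene just outside was Rpl10l, at 3.07. RefSeq lists 89 coding symbols that match the rule. Of these, 64 had a row of their own, 16 were found in rows that name several genes alone, and the rest were not analysed here.

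The study set T cells against each other by genotype for galectin-3, the product of Lgals3 and a lectin found inside and outside cells, in donor and host. In the first group, T cells from galectin-3 knockout (KO) donors were recovered from KO hosts (n = 4). In the second, wild type (WT) T cells were recovered from KO hosts (n = 3, with array 4 of this group not analysed here), and in the last, WT T cells were recovered from WT hosts (n = 4). No group held KO T cells in WT hosts. All donors were T cell receptor transgenic mice with a high-avidity receptor, and the transferred cells were sorted on Thy1.2, a variant of a T cell surface protein that tells donor from host cells. All hosts carried NT2.5 mammary tumors from day 0, and were given cyclophosphamide (100 mg/kg) on day 8. A GM-CSF-secreting vaccine of whole cells followed on day 9 and the T cells on day 10. Tumors were taken 5 days after the transfer. The labels leave out how many mice stand behind an array, and p-values therefore measure the spread between these samples, which may be technical. Groups and arrays are named below by T cell genotype, host genotype and replicate: KO/KO, WT/KO and WT/WT cells, and array KO/KO 1.

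Ribosomal proteins are made in balanced amounts, since each ribosome holds them in fixed proportion and unassembled copies are degraded. Their mRNAs start with a stretch of pyrimidines, the terminal oligopyrimidine (TOP) motif, through which mTOR and the RNA-binding protein Larp1 control their translation. CD8 T cells that meet their antigen enlarge and enter division, with Myc and mTOR driving ribosome production. Array signals report mRNA abundance and do not show translation or protein.

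Before the members, the labels were checked. Lgals3 had log2 signals of 7.39, 7.54, 7.26 and 7.54 in KO/KO cells, 8.35, 8.02 and 8.45 in WT/KO cells, and 8.49, 8.15, 8.17 and 8.41 in WT/WT cells. The KO T cell arrays were thus the 4 lowest, in the direction of their label, although the difference of -0.87 from WT/WT cells had a limma adjusted p of 0.103. The 7 measured CD8 T cell markers averaged 9.99 to 10.18 in KO/KO arrays, 10.02 to 10.14 in WT/KO arrays and 9.95 to 10.16 in WT/WT arrays, and Cd4 lay below the filter in every group. Arrays also differed in value range, expressed as the slope of an array's values on the mean of all arrays. It lay between 0.985 and 1.03 in every KO/KO and WT/KO array and in WT/WT 2 and WT/WT 3, and was 0.965 in WT/WT 1 and 0.945 in WT/WT 4, the 2 arrays of narrowest range. In the comparisons with WT/WT arrays, counts of genes above 0 changed under other scalings or without these 2 arrays. Such counts are given where they change, and why they changed was not tested. Shares of all genes above 0 are those of the main fit alone.

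The signals of the 65 members were bright as a group. Of them, 44 had a mean log2 signal of 10 or more, against 346 of all 15194 genes tested. A row's signal depends on its probes, so signals are not compared between genes here as amounts of mRNA. Within a gene, arrays can be compared, and the deviation of each member from its own mean was taken in each array. Its median over the 65 members was -0.08, -0.0019, 0.01 and 0.07 in the 4 KO/KO arrays, 0.06, 0.07 and -0.07 in the 3 WT/KO arrays, and -0.03, 0.03, 0.06 and -0.10 in the 4 WT/WT arrays. The 3 groups therefore overlapped, and each group held arrays on both sides of 0. The arrays lowest for the members, WT/WT 4, KO/KO 1 and WT/KO 3, came from different groups. The 302 other genes of mean signal 10 or more had medians of -0.12 in WT/WT 4, -0.02 in KO/KO 1 and -0.04 in WT/KO 3.

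**Figure D1:**
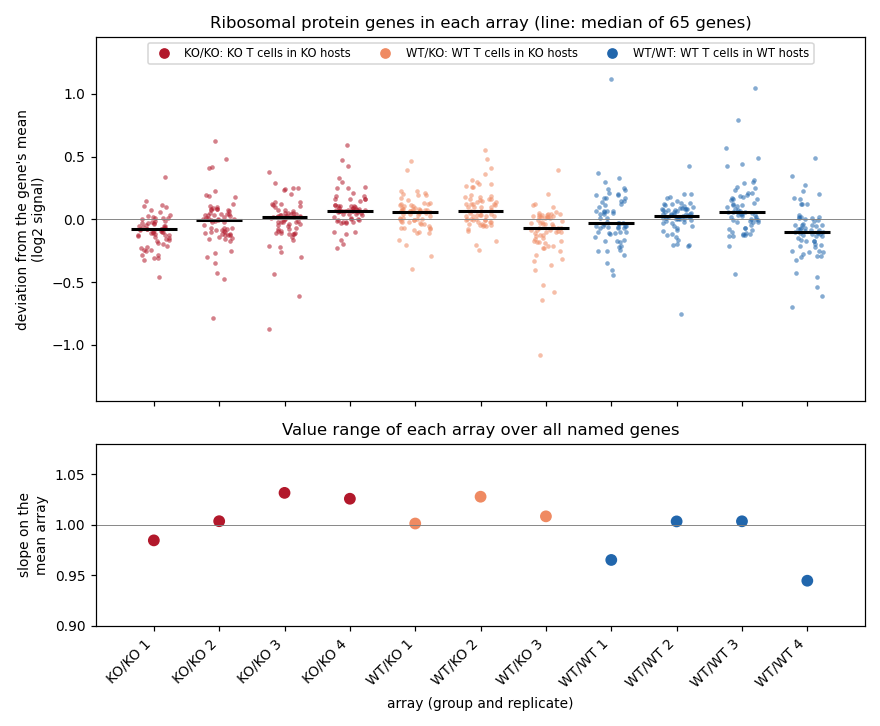
Upper panel: deviation of each of the 65 ribosomal protein genes from its own mean over the arrays (log2 signal) in each of the 11 arrays, with the median as a line. Lower panel: slope of each array on the mean of all arrays. Medians lie between -0.10 and 0.07 and the 3 groups overlap, while the slopes of WT/WT 1 and WT/WT 4 are the lowest.

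RefSeq promoter entries were found for 52 of the 65 members, and the TOP motif was searched as a run of C and T that begins with C, within 20 bases on either side of the annotated start. A run of 5 or more was present in 73.1% of these members, against 48.1% of the 11804 genes tested that have an entry. For a run of 8 or more it was 46.2% against 13.5%, and for one of 10 or more 25% against 6.52%. The windows shown illustrate the motif in 4 members with a run near the start, chosen for that run (Rpl28, which also had the smallest spread over arrays, Rps18, Rps27 and Rplp2). They are set beside Rpl22, whose longest run had 4 bases, and its paralog Rpl22l1. Each covers 30 bases, 10 before the annotated start and 20 from it on, read in the direction of the gene from RefSeq on GRCm38.p6, with the longest run in capitals where it lies in the window.
Rpl28, chr7:4792955-4792984, plus strand: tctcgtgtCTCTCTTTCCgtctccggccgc
Rps18, chr17:33955646-33955675, minus strand: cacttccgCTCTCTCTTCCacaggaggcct
Rps27, chr3:90213629-90213658, minus strand: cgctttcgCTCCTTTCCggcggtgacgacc
Rplp2, chr7:141447641-141447670, plus strand: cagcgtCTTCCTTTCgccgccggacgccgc
Rpl22l1, chr3:28805498-28805527, plus strand: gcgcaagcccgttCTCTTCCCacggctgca
Rpl22, chr4:152325716-152325745, plus strand: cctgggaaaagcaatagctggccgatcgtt
In the first 4 windows the run of C and T spans the annotated start. Over 250 bases before and 50 after the start, and on both strands, CCGGAAG, the core bound by factors of the Ets family, was found in 36.5% of members, against 15.3% of genes tested and 34.8% of mitochondrial ribosomal protein genes. CACGTG, the E-box that Myc can bind, was found in 9.62% of members and 9.63% of genes tested. A match describes letters only, and the 13 members without an entry were not searched.

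KO/KO cells were first set against WT/WT cells, which differ in the genotype of both cell and host. Ribosomal protein genes stayed close to 0. Their median log2 difference was -0.02, the same as that of all genes tested, -0.02, and the members ran from -0.54 to 0.34. The 346 genes of mean signal 10 or more, 44 of them members, had a median of 0.04. Large subunit members had 15 of 41 above 0 with a median of -0.03, and small subunit members 10 of 24 with a median of -0.0043. With limma, 0 of 65 members passed an adjusted p under 0.05, as did 0% of all genes tested, and the lowest adjusted p of a member was 0.555. At an unadjusted p under 0.05 there were 2 members (3.08%), both higher in KO/KO cells, against 8.46% of all genes (4.79% higher and 3.67% lower). In 1 member the groups did not overlap, also on the higher side, against 5.02% of all genes (2.61% higher and 2.41% lower). The number of members with a difference above 0 was 25 of 65, against 46.7% of all genes. It was 42 after median centring, which moves every gene of the comparison by the same 0.0465, and 16 with value range as a covariate. The share of all genes under these settings is not given here. The median standard error of a member was 0.12, and the 95% interval of the difference lay within 0.5 of 0 for 51 of 65 members, against 59.0% of all genes.

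Those 2 members were Rps19bp1 and Rpl8. Rps19bp1 is no ribosomal protein despite its symbol: it binds Rps19 and is known as a regulator of the deacetylase Sirt1. Its signals were 8.83, 9.37, 8.80 and 9.18 in KO/KO cells, and 8.63, 8.76, 8.81 and 8.62 in WT/WT cells. The difference was 0.34 ± 0.13 (SE), with a limma adjusted p of 0.555, and KO/KO 3 lay below WT/WT 3. Rpl8, a large subunit protein near the site where peptide bonds form, had signals of 9.25, 9.07, 9.37 and 9.38 in KO/KO cells, and 9.07, 8.97, 9.01 and 9.05 in WT/WT cells. All KO/KO arrays lay above all WT/WT arrays, although KO/KO 2 and WT/WT 1 were equal to the decimals shown, with a difference of 0.24 ± 0.11 (SE) and a limma adjusted p of 0.580. An exact two-sided permutation test of Rpl8 gave p = 0.0286, the smallest that 4 against 4 arrays allow. Any gene whose groups of 4 do not overlap gets this p, so it adds nothing to the separation just given.

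Among the members of next lowest p in the same comparison, Rps20 differed by 0.20 ± 0.10 (SE), Rpl22 by 0.24 ± 0.15, Rps25 by 0.16 (0.02 with the mean of its rows) and Rps3 by 0.22 ± 0.15. On the other side, Rps15a differed by -0.39 ± 0.24, Rpl23a by -0.23 ± 0.16, Rpl7a by -0.22, Rpl29 by -0.16, Rps15 by -0.12 and Rpl39l by -0.54 ± 0.48. The lowest limma adjusted p among these 10 was that of Rps20, at 0.600. Rps15a, a small subunit protein, had signals of 10.53, 10.39, 10.04 and 10.90 in KO/KO cells, 10.77, 11.06 and 10.01 in WT/KO cells, and 10.78, 10.81, 11.21 and 10.60 in WT/WT cells. The 2 KO host groups each held an array close to the lowest of all 11 and others far above it, and all 3 groups overlapped. Rpl22, needed in mice for the development of αβ T cells, had a difference of -0.02 when the 2 arrays of narrowest range, which held its lowest signals, were left out. Rps15 had 0.02 in the same fit.

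WT/KO cells were then compared with the same WT/WT cells, so that the groups differ in the host alone. The median difference of the members was 0.02, against -0.03 for all genes tested, and 0 of 65 passed in limma (0% of all genes). At an unadjusted p under 0.05 there were again 2 members (3.08%), Rps3 and Rpl22, both higher in WT/KO cells, against 7.48% of all genes (3.62% higher and 3.86% lower). Groups did not overlap for 4 members (6.15%), against 8.89% of all genes (3.57% higher and 5.32% lower): Rps20, Rps25 and Rps19bp1 on the higher side and Rpl21 on the lower side. A difference above 0 was found for 40 of 65 members, against 45.5% of all genes. It was also found for 228 of the 346 genes of mean signal 10 or more, 44 of them members, whose median was 0.04. For the members the count was 22 after cyclic loess normalization, 49 after median centring and 25 without the 2 arrays of narrowest range. The side of 0 on which most members lie thus depends on the scaling. The share of all genes under those scalings is not given here. The 95% interval lay within 0.5 of 0 for 50 of 65 members, against 51.1% of all genes.

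Rps3 had the lowest p in this comparison. It is a small subunit protein at the mRNA entry channel that also takes part in DNA repair and in NF-kB signalling in T cells. Its signals were 8.50, 8.47, 8.82 and 8.57 in KO/KO cells, 8.96, 9.05 and 8.40 in WT/KO cells, and 8.22, 8.38, 8.49 and 8.40 in WT/WT cells. WT/KO 1 and WT/KO 2 were the highest of all arrays, while WT/KO 3 lay inside the WT/WT range. The difference of 0.43 ± 0.16 (SE) had a limma adjusted p of 0.654 and an exact permutation p of 0.0857.

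Rpl22 had signals of 10.65, 10.54, 10.78 and 10.80 in KO/KO cells, 10.86, 10.91 and 10.66 in WT/KO cells, and 10.19, 10.62, 10.79 and 10.18 in WT/WT cells. WT/WT 2 and WT/WT 3 lay inside the range of the KO host arrays, and the 2 lowest signals were those of the 2 arrays of narrowest range. The difference of 0.36 ± 0.16 (SE) had a limma adjusted p of 0.654, and it was 0.10 without those 2 arrays. Rps20, a small subunit protein, had 11.20, 11.18, 11.39 and 11.30 in KO/KO cells, 11.22, 11.26 and 11.29 in WT/KO cells, and 11.02, 11.22, 11.06 and 10.97 in WT/WT cells. Its difference between hosts was 0.19 ± 0.10 (SE), with a limma adjusted p of 0.667. Rps25, a small subunit protein used by some viral internal ribosome entry sites, differed by 0.16 ± 0.11 (SE), and by 0.06 with the mean of its rows. On the lower side, the members of lowest p were Rps23 (-0.23 ± 0.13), Rpl29 (-0.18 ± 0.12), Rps4l (-0.31 ± 0.23), Rps15 (-0.16 ± 0.12), Rpl34 (-0.24 ± 0.19) and Rpl3l (-0.25 ± 0.20), none past the test.

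**Figure D2:**
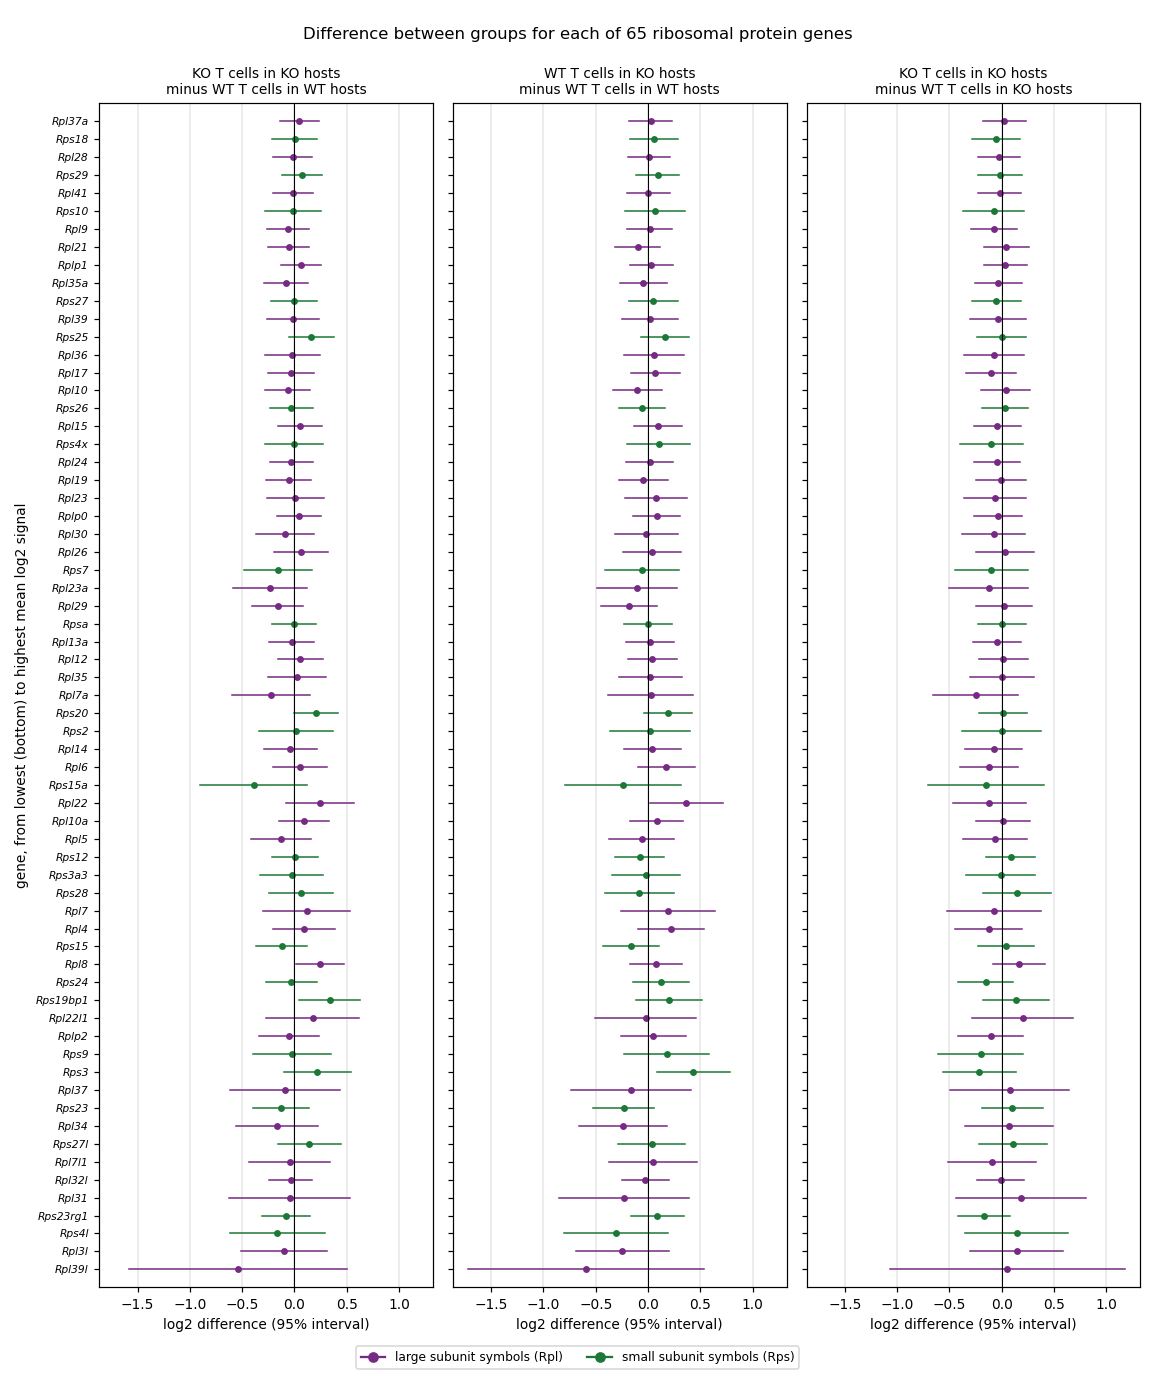
Log2 difference (point) with its 95% limma interval (line) for each of the 65 ribosomal protein genes in the 3 comparisons, ordered by mean signal. Points gather near 0, and intervals widen toward the dim rows at the bottom, with Rpl39l the widest.

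KO and WT/KO cells share the host genotype and differ in the T cells. The median difference of members was -0.02, against 0.01 for all genes tested, and 26 of 65 were above 0, against 53.2% of all genes, with 24 to 35 under 5 other scalings, 39 without WT/KO 2 and 18 without WT/KO 3. With limma, 0 of 65 passed (0% of all genes), and 0 had an unadjusted p under 0.05, against 3.42% of all genes (1.93% higher and 1.48% lower). In 1 member the groups did not overlap, against 4.07% (2.26% higher and 1.81% lower). It was Rps23rg1, an Rps23 retrogene, with 5.69, 5.82, 5.73 and 5.71 in KO T cells and 6.01, 5.85 and 5.86 in WT T cells, a difference of -0.17 ± 0.11 (SE). The differences ran from -0.25 for Rpl7a to 0.20 for Rpl22l1, and none exceeded 0.5. Rps3 differed by -0.21 ± 0.16 (SE) and Rpl8 by 0.16 ± 0.11 (SE), and the groups overlapped for both genes. The 95% interval lay within 0.5 of 0 for 52 of 65 members, against 59.8% of all genes. The 3 comparisons share arrays, so their values are given side by side and not as independent evidence.

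**Figure D3:**
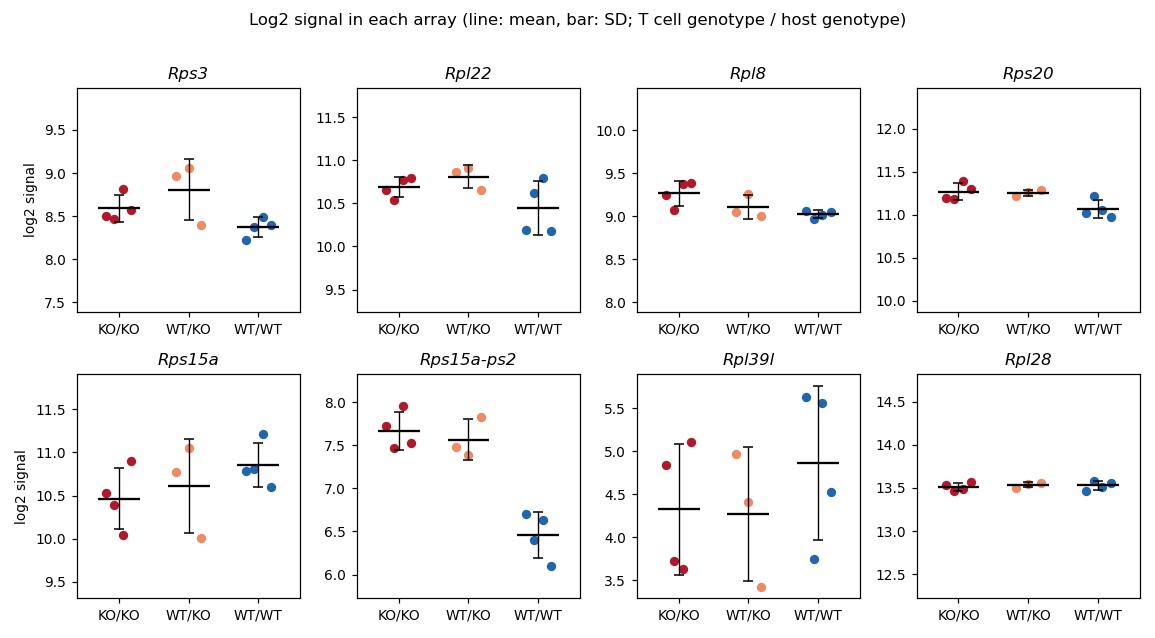
Log2 signal in every array for 7 ribosomal protein genes and the pseudogene symbol Rps15a-ps2, with the mean and SD of KO/KO (n = 4), WT/KO (n = 3) and WT/WT (n = 4) groups. All panels span the same range, the groups of Rps15a-ps2 separate by host, and those of Rpl28 coincide.

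By role, the proteins of the ribosomal stalk, which recruits elongation factors, showed small differences. Rplp0, Rplp1 and Rplp2 differed by 0.04, 0.06 and -0.06 between KO/KO cells and WT/WT cells, and by 0.08, 0.03 and 0.05 between WT T cells of KO and WT hosts. Rpl5, which with Rpl11 carries the small ribosomal RNA of the large subunit and can bind Mdm2 to stabilise p53, differed by -0.12 ± 0.13 (SE) and -0.06 ± 0.14 (SE) in these comparisons. Its partner Rpl11 was found in a row shared with another gene alone, where the differences were 0.10 ± 0.16 and 0.20 ± 0.17 (SE). Rpsa, the laminin receptor precursor that is also a small subunit protein, differed by -0.0048 and -0.0050. Rpl10, which joins the large subunit late in its assembly, differed by -0.06 ± 0.10 and -0.10 ± 0.11 (SE). Fau, which encodes a ubiquitin-like protein fused to the small subunit protein S30 and lies outside the symbol rule, differed by 0.05 ± 0.10 and 0.08 ± 0.10 (SE).

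Paralogs can replace their partner in the ribosome of some tissues. Rpl22l1, the paralog of Rpl22, had differences of 0.18 ± 0.20 and -0.02 ± 0.22 (SE) from WT/WT cells for KO and WT/KO cells. Rps27l, a target of p53, had 0.14 ± 0.14 and 0.03 ± 0.15, and Rpl3l, a muscle form of Rpl3, had -0.10 ± 0.19 and -0.25 ± 0.20. Rpl39l, a testis form of Rpl39, varied most among all members. Its signals were 4.84, 3.72, 3.63 and 5.10 in KO/KO cells, 4.97, 4.41 and 3.43 in WT/KO cells, and 5.63, 3.75, 5.55 and 4.53 in WT/WT cells. Each group held arrays on both sides of the filter, and the 95% interval of the first difference, -1.58 to 0.50, was the widest of all members. Rpl7l1, a relative of Rpl7 that acts in ribosome assembly, differed by -0.05 ± 0.18 and 0.04 ± 0.19 (SE). Rps4l and Rps3a3 match the rule by symbol, but RefSeq lists both as pseudogenes. Without the symbols that are paralogs, retrogenes, RefSeq pseudogenes or no ribosomal proteins, 55 members were left, with medians of -0.02, 0.02 and -0.03 in the 3 comparisons and 0 past the test in each.

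Several rows for 1 gene allow a check within the arrays. The 66 matched genes had 163 single-gene rows, of which 162 reached the filter and belonged to members. The row that did not was that of Rpl10l. Of the members, 41 had 2 or more rows. Across KO/KO cells and WT/WT cells, rows of the same gene pointed in both directions for 23 of 41 members, with a median spread of 0.19 between the lowest and highest row. Between hosts it was 24 of 41, and between T cell genotypes 23 of 41. In limma over all 18571 such rows, 0 of the 162 passed in any comparison (0% of all rows), and 5, 5 and 1 had an unadjusted p under 0.05, against 7.90%, 7.17% and 3.40% of all rows. The 9 rows of Rpl35a ran from -0.54 to 0.08 and those of Rpsa from -0.39 to 0.17 in the first comparison. The 3 rows of Rps15a all lay below 0 there, from -0.39 to -0.14, and the 2 rows of Rpl22 above 0, at 0.12 and 0.24.

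The 16 coding symbols found in shared rows alone, among them Rps6, whose protein is the classical substrate of S6 kinases, and Rps19, the gene most often mutated in Diamond-Blackfan anemia, occupied 15 rows. With limma over 1436 rows that name several genes, 0 of 15 passed (0% of such rows), and 0, 1 and 1 had an unadjusted p under 0.05, against 7.80%, 7.52% and 2.23%. The row of Rps6 differed by -0.04 ± 0.15 and 0.01 ± 0.16 (SE) from WT/WT cells, and that of Rps19 by 0.03 ± 0.09 and 0.02 ± 0.10. The row of Rps21, shared with another gene, had the largest value between T cell genotypes, with 9.08, 8.75, 8.52 and 8.88 in KO T cells and 8.29, 8.22 and 8.40 in WT/KO cells. These groups did not overlap, as was so for 4.07% of all genes tested between T cell genotypes. The share among rows that name several genes was not taken. For the Rps21 row the difference was 0.51 ± 0.15 (SE) with a limma adjusted p of 0.998. In WT/WT cells the same row had 8.76, 8.74, 8.39 and 8.44, with 2 arrays inside the KO/KO range and 2 below it. The row of Rpl32, shared with the small nucleolar RNA Snora7a, differed by 0.34 ± 0.15 (SE) between hosts.

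Of 38 pseudogene symbols, 29 passed the filter. Processed pseudogenes of this family are near copies of their parent mRNA, so a row can also take up signal of the parent or of other copies, and this was not tested. In limma 0 of 29 passed in any comparison, and 2, 1 and 1 had an unadjusted p under 0.05, against 8.46%, 7.48% and 3.42% of all genes. Rps15a-ps2 was the symbol of lowest adjusted p in the family. Its signals were 7.72, 7.47, 7.95 and 7.52 in KO/KO cells, 7.48, 7.39 and 7.83 in WT/KO cells, and 6.70, 6.40, 6.63 and 6.10 in WT/WT cells. All 7 arrays from KO hosts lay above all 4 from WT hosts, while the 2 KO host groups overlapped. Set against WT/WT cells, groups did not overlap for 5.02% of all genes in KO/KO cells and 8.89% in WT/KO cells. Among the 29 pseudogene symbols it was 1 in each comparison. The Rps15a-ps2 difference from WT/WT cells was 1.21 ± 0.16 (SE, limma adjusted p = 0.0580) for KO/KO cells. For WT/KO cells it was 1.11 ± 0.18 (SE, limma adjusted p = 0.288). Between the T cell genotypes in KO hosts it was 0.10 ± 0.18 (SE). Over 24 alternative settings the first value stayed between 1.09 and 1.29 with limma adjusted p from 0.0274 to 0.651, and it passed in 4 of them. Rps15a, from which its symbol derives, differed by -0.39 in the first comparison, as given above.

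Other pseudogene symbols with an unadjusted p under 0.05 were Rps12-ps16, with 0.39 ± 0.16 (SE) between KO/KO cells and WT/WT cells, and Rps6-ps2, with 0.47 ± 0.21 (SE) between T cell genotypes. With the mean of its rows in place of the highest one, Rps12-ps16 had -0.04. Rpl13a-ps1 differed by -1.01 ± 0.60 (SE) in the first comparison. That value rests on WT/WT 1, whose signal was 8.48 while WT/WT 2, 3 and 4 had 4.98, 5.28 and 5.51, and it was -0.20 without that array. Rpl27a-ps1 spanned 4.45 to 7.79 over all arrays, with its highest signals in WT/KO 2 and WT/WT 3 and its lowest in WT/KO 3.

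The spread over all 11 arrays, whatever their group, was small for most members. The median SD of a member was 0.147, against 0.213 for all other genes tested. Since bright rows vary less, genes of like signal were set side by side. At mean signals of 10 to 12 the median SD was 0.154 for 19 members and 0.205 for 247 other genes, and at 12 to 13 it was 0.0981 for 16 members and 0.139 for 46 others. At 8 to 10 the values were 0.224 for 11 members and 0.238 for 1137 others, and below 8 they were 0.259 for 10 members and 0.212 for 13690 others. The lower spread was thus found among the bright members and was not seen among the dim ones, a description with no test. Rpl28, with 13.46 to 13.58 in all 11 arrays, had the lowest SD at 0.0419, followed by Rpl41 at 0.0457 and Rpl37a at 0.0490. Signals this high may lie near the upper end of the array's scale, where the highest value of any array was 14.22 to 14.37, and a change there can be compressed, which was not tested. The highest SDs were those of Rpl39l at 0.785, Rpl31 at 0.403 and Rps15a at 0.385.

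**Figure D4:**
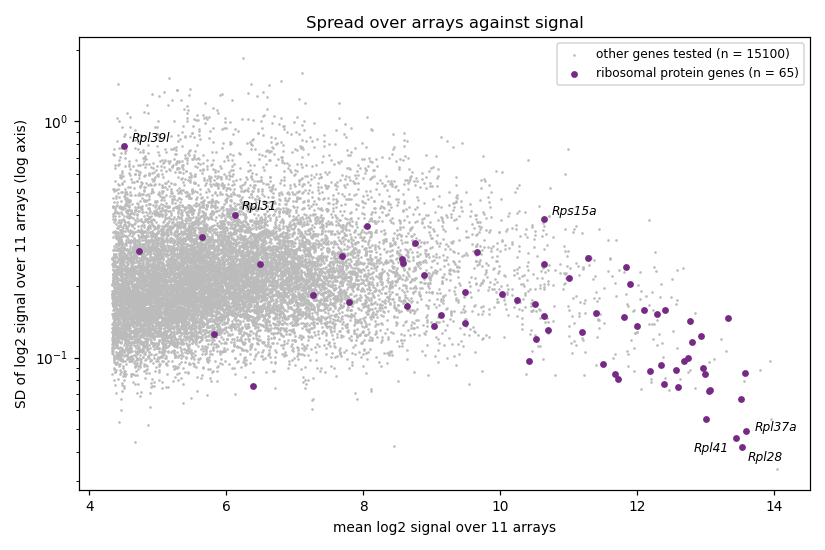
SD over 11 arrays (log axis) against mean log2 signal for the 65 ribosomal protein genes and the other genes tested. Most members lie at the bright end with low SD, while Rpl39l, Rpl31 and Rps15a lie above most genes of like signal.

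Genes that make or use ribosomes were followed as lists beside the members. In KO/KO cells against WT/WT cells, 46.7% of all genes tested were above 0. Among ribosome biogenesis genes it was 31 of 36, with a median of 0.14. Of these genes, 5 had an unadjusted p under 0.05, all above 0, against 4.79% of all genes in that direction. Ltv1, needed for small subunit maturation, had 0.61 ± 0.17 (SE), Nop14, a nucleolar small subunit factor, 0.40 ± 0.14, and Nat10, an RNA acetyltransferase, 0.30 ± 0.11. Of 25 translation initiation genes, 4 of which are also TOP genes, 23 were above 0, with a median of 0.14, among them the cap-binding protein gene Eif4e at 0.55 ± 0.23 (SE). Other TOP mRNAs, which share the motif of the members, had 11 of 16 above 0 with a median of 0.05, and mitochondrial ribosomal protein genes 51 of 75 with a median of 0.08. With limma, 0 genes of these lists passed. Without the 2 arrays of narrowest range the counts were 26 of 36 for biogenesis and 13 of 25 for initiation. They were 4 of 16 for other TOP mRNAs and 42 of 75 for mitochondrial ribosomal proteins. The share of all genes above 0 in that fit is not given here.

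Between hosts, 30 of 36 biogenesis genes were above 0 with a median of 0.09, against 45.5% of all genes tested. After quantile normalization it was 20 of 36. Initiation genes had 20 of 25 above 0 with a median of 0.14, and 15 of 25 after quantile normalization. Among 10 genes of RNA polymerase I and its factors, 7 were above 0 in both comparisons with WT/WT cells, and 6 and 4 without the 2 arrays of narrowest range. Ubtf, which binds ribosomal DNA, differed by 0.62 ± 0.21 (SE) for KO/KO cells and by 0.64 ± 0.23 for WT/KO cells, both against WT/WT cells, and Polr1b by 0.23 ± 0.12 and 0.47 ± 0.13. Among 15 Myc and mTOR genes, 9 and 8 were above 0, and 7 and 6 without those arrays. Mxd4, an antagonist of Myc, differed by -0.57 ± 0.11 (SE, limma adjusted p = 0.260) and -0.25 ± 0.12, and Myc by 0.31 ± 0.15 and 0.26 ± 0.16. Between T cell genotypes in KO hosts, biogenesis genes had 27 of 36 above 0 with a median of 0.04, against 53.2% of all genes tested. Initiation genes had 11 of 25 above 0 with a median of -0.01. In limma, 0 genes of any of these lists passed in any comparison.

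**Figure D5:**
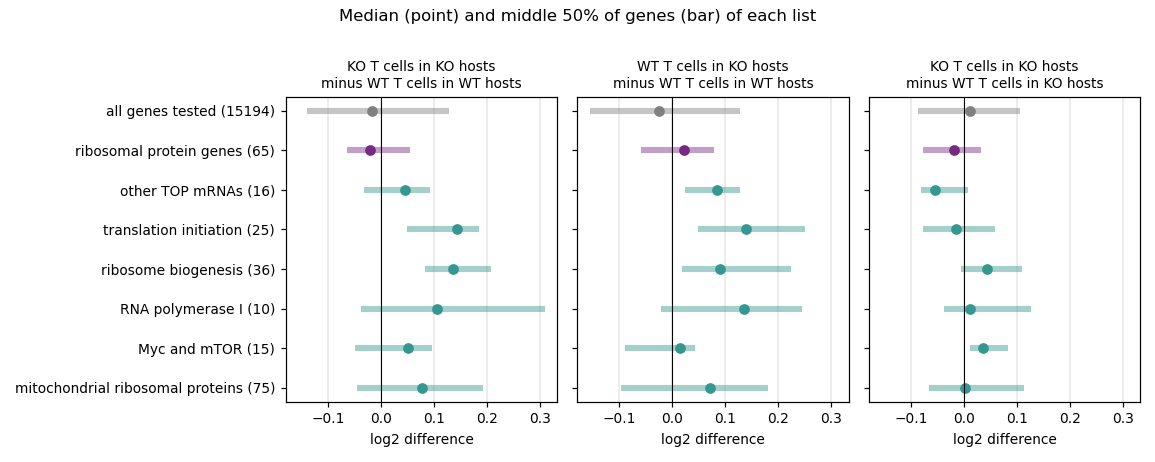
Median (point) and middle 50% (bar) of the log2 differences of all genes tested, the 65 ribosomal protein genes and 6 related lists in the 3 comparisons, with the number of genes in brackets. The median of the ribosomal protein genes is -0.02, 0.02 and -0.02 in the 3 panels, and those of biogenesis and initiation genes lie near 0.14 in the first.

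Markers of other cells differed between the groups. All 10 tested monocyte and macrophage markers were above 0 in both comparisons with WT/WT cells, with a median of 0.51 in each. In each, 7 of 10 had an unadjusted limma p under 0.05, against 4.79% and 3.62% of all genes in that direction. After adjustment 0 of 10 passed in either comparison. The mean signal of all 11 measured markers, including Mrc1 below the filter, was 6.59 to 6.85 in KO/KO arrays and 6.58 to 7.05 in WT/KO arrays. It was 6.19 to 6.42 in WT/WT arrays, which did not overlap the others. The neutrophil marker S100a8 differed by 2.72 ± 0.55 (SE) for KO/KO cells and 1.19 ± 0.59 for WT/KO cells, while 4 of the 7 neutrophil markers, Ltf, Camp, Mpo and Elane, were below 0 in both. Between KO/KO and WT/KO cells all 7 were above 0, with 1.54 ± 0.59 (SE) for S100a8 and 1.02 ± 0.25 for S100a9, and 0 passed in limma. The mean of the 7 was 5.29 to 5.66 in KO/KO arrays, 4.76 to 5.26 in WT/KO arrays and 4.83 to 5.01 in WT/WT arrays, so that KO/KO arrays did not overlap the others. Tumor epithelium markers averaged 4.96 to 5.31, 5.21 to 5.24 and 5.02 to 5.47 in the same groups, which overlapped. Against WT/WT cells, 6 of 6 were below 0 for KO/KO cells (median -0.20). For WT/KO cells 4 were below and 2 above (median -0.05). Endothelium and stroma markers had 5 of 5 below 0 in both comparisons, with medians of -0.13 and -0.14. Of all genes, 46.7% and 45.5% were above 0, and 0 of these markers passed in limma. The part of these cells in the values of Rps15a-ps2, Rps3, Rps20 and the biogenesis genes was not tested. In a bulk sample of sorted cells, fewer cells of a type and less RNA per cell cannot be told apart.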

How the data were processed

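Per the labels' protocols, sorted cells gave RNA through the Absolutely RNA Nanoprep kit, which was amplified by Ovation Pico WTA, biotin-labelled and put on arrays. The authors deposited log2 signals in a table of 115830 rows for 11 arrays. The submitters' processing notes name RMA (background correction, normalization and summary of probes), Partek and the build mm9, with no versions given in the sources used here. RMA draws arrays to a like distribution, so differences are relative to all rows, and the number of arrays limits the precision.

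In the annotation table of the platform, 25539 rows name exactly 1 gene. For each of 20259 genes the row of highest mean was used, and genes under the 25th percentile were left out. limma (version 3.58.1, R 4.3.3) fitted group means to the deposited values of all 11 arrays, with Benjamini-Hochberg adjustment over 15194 genes and a threshold of 0.05. For single genes, an exact permutation test (two-sided) over arrays was added, and the fit was tested on simulated data. The members, lists and alternatives were chosen with earlier results of these data known. Named genes were, per comparison, the 6 members of lowest p in each direction, the members of role and paralog lists, pseudogene symbols, the 3 members of largest and of smallest SD, and up to 3 genes per related list, and not every one is printed. Rps21, Rpl32, Rps6, Rps19 and Rpl11 in shared rows, the rows of Rpl35a, and Rpl27a-ps1 were named after their values were seen. The 24 alternatives covered scaling, filter, rows, variance model, weights, arrays in the fit and a block for replicate numbers.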

Additional observations from a re-analysis of the deposited data

Results flagged for a closer look

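In a group of 4 arrays, a value was singled out when its gap to the nearest of the others took up most of the group's range (Dixon's test at the 95% level). Of 190 such groups over members, pseudogene symbols and the arrays' median member deviation, 9 held such an array, and chance gives about 1 in 20. In KO/KO 2, Rpl31 had 6.74 (the other 3 arrays 5.86 to 6.01), Rpl3l 5.13 (4.55 to 4.64) and Rpl7l1 6.14 (6.53 to 6.58). In KO/KO 3, Rps28 had 9.78 (10.18 to 10.22) and Rps12-ps16 8.39 (8.87 to 8.96). In KO/KO 4, Rps23 had 8.01 (7.68 to 7.71) and Rpl27-ps1 9.30 (8.76 to 8.84). In WT/WT 4, Rpl37a had 13.49 (13.59 to 13.61), and in WT/WT 1, Rpl13a-ps1 had 8.48 (4.98 to 5.51). These arrays were not left out.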

How the results depend on the processing

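Over 24 alternatives, 11 of which leave out 1 array, 0 of 65 members passed the limma threshold in any comparison. For KO/KO cells against WT/WT cells, the count of all genes past it was 0, and 2 with quantile normalization, the 50th percentile filter or the mean of a gene's rows, 3 with median centring or with the replicate block, and 0 to 1 with 1 array left out (1 without KO/KO 4). Members above 0 were 25 there, 42 with median centring and 16 with value range as a covariate, which moved the median to -0.10. For WT/KO cells against WT/WT cells they were 40, and 22 with cyclic loess normalization, 18 with value range as a covariate (median -0.0692) and 25 without the 2 arrays of narrowest range. Leaving out 1 array gave 19 to 37, 30 to 47 and, between T cell genotypes (26), 18 to 39 members above 0. The cause was not tested.

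No value of a member was past the threshold. Single-gene values were followed for named members, 29 pseudogene symbols, Fau and Lgals3. Of these values, 39 of 62, 37 of 62 and 34 of 64 in the 3 comparisons changed sign in at least 1 alternative. Among the members of lowest p between KO/KO cells and WT/WT cells these included Rps15, with 0.0065 with value range as a covariate and 0.0235 without the 2 arrays of narrowest range, and Rpl22, with -0.0169 in the last fit. Rps24, at -0.15 between T cell genotypes, had 0.00068 with the mean of its rows. Lgals3 between hosts was -0.03, and 0.027 with median centring, 0.12 with value range as a covariate, 0.11 without the 2 arrays of narrowest range, 0.00082 with array weights, 0.0030 with the replicate block and -0.12 to 0.0942 with 1 array left out. Its difference between KO/KO cells and WT/WT cells passed with median centring (limma adjusted p = 0.0475).

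Of 10 pairs of same-numbered arrays, 2 had a correlation of deviations above 0.1 (range -0.11 to 0.12). Such values cannot tell whether same-numbered samples were taken or processed together, and the main fit left the numbers out. With the replicate block the counts of members above 0 in the 3 comparisons were 25, 40 and 25. With 3 or 4 arrays a group, the median 95% interval of a member reached 0.26 to 0.28 on either side. That interval is not adjusted for the number of genes, so it is no limit of detection. Larger differences, such as 0.43 for Rps3 between hosts, did not pass the adjusted threshold either.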
